A study of Mus musculus with 8 samples.

Results

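The genes described here are 10 microtubule and growth cone genes of developing neurons: the doublecortin-domain genes Dcdc2a, Dcx, Dclk1 and Dclk2, the stathmins Stmn1, Stmn2, Stmn3 and Stmn4, the growth cone gene Gap43 and the neuronal tubulin gene Tubb3. They were chosen in part on the outcome itself, because Dcdc2a and Stmn4 were lower in the mutant of this study, so their differences between mutant and control are given as a description, with no test. All 10 were measured, among 19928 genes in all, and each was taken from its brightest transcript cluster, which is the array's summary of a gene over its exons. Olfactory mucosa of mice at postnatal day 3 was hybridised to 8 arrays. The 4 mutant arrays (cKO) came from 123Cre:Lhx2fl/fl mice, in which Cre recombinase removes the loxP-flanked first exons of both alleles of Lhx2, a LIM homeodomain transcription factor gene. The 4 control arrays came from littermates able to recombine at most 1 allele: controls 3 and 4 were 123Cre:Lhx2fl/+ and controls 1 and 2 were Lhx2fl/+ with no Cre. All animals therefore carried at least 1 floxed allele, and 2 of the 4 controls also carried Cre. The 123Cre line becomes active in immature olfactory sensory neurons (OSNs), so stem cells, progenitors and non-neuronal cells keep the gene, and by the study's own account the deletion is incomplete. The lines were on a mixed genetic background and both sexes were used.

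OSNs are replaced throughout life. A newly born OSN goes through an immature stage, in which it extends a dendrite and an axon and is rich in GAP43, doublecortin and stathmins, and then becomes a mature OSN with sensory cilia, marked by olfactory marker protein. Doublecortin-domain proteins bind and stabilise microtubules, the polymers that stiffen axons and cilia. Stathmins bind free tubulin dimers and promote the disassembly of microtubules. GAP43 is a membrane-associated protein of growth cones, and class III beta tubulin, the product of Tubb3, is a tubulin of neurons.

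The deposited values are log2 signals, so a difference between groups is the log2 of their ratio. They are compared only within a gene, since the probes of different genes differ in brightness. Array medians lay between 8.83 and 8.89. The tissue label was checked on Omp, whose signal was 12.68, 11.997, 12.62 and 12.59 in the cKO arrays and 13.40, 13.39, 13.49 and 13.47 in the control arrays, and on Cyp2g1 of sustentacular cells, which read 14.28 to 14.32 in the cKO arrays and 14.30 to 14.31 in the control arrays. Omp encodes olfactory marker protein. The targeted gene, Lhx2, read 13.03, 12.55, 13.01 and 13.02 in the cKO arrays and 13.14, 13.09, 13.20 and 13.13 in the control arrays, a difference of -0.24 (SE 0.11, limma adjusted p = 0.337). Every cKO array was below every control array in Lhx2, and the cluster signal includes the exons that the deletion spares. Array cKO 2 stood apart from the other 3 cKO arrays in Omp and in Lhx2, so each result that rests on it is also given without it. By limma at an adjusted p under 0.01, 412 of the 19928 genes (2.07%) were lower and 12 (0.0602%) were higher in cKO. The count of lower genes depended on single arrays, from 30 without control 1 to 657 without cKO 2.

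Of the 10 genes, Dcdc2a and Stmn4 were among the genes so called as lower, and 0 were called as higher. Both were known to have fallen when the set was chosen, so these calls, and those of single members below, describe the genes and test nothing. In 4 of them, Dcdc2a, Dcx, Stmn4 and Gap43, every cKO array lay below every control array. This arrangement was seen in 8.43% of all genes and in 4.51% of the genes that encode no chemoreceptor. In none of the 10 did every cKO array lie above, as in 3.18% of all genes. In the other 6 genes the groups overlapped. The difference was below 0 in 9 genes, with a median of -0.11, or -0.07 without Dcdc2a, while the median over all genes was 0.03. Nothing about the 10 genes as a set can be read from these counts, because the choice of genes used the same contrast.

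**Figure D1:**
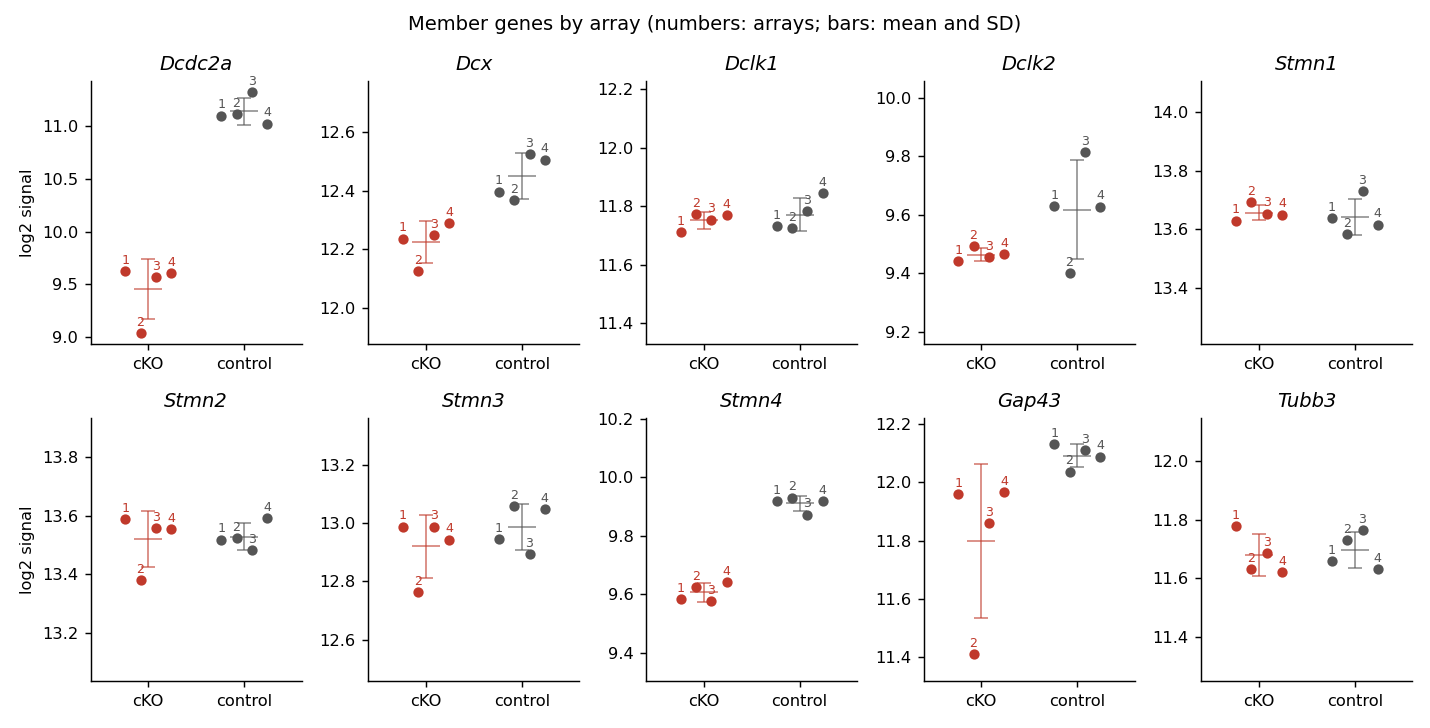
Log2 signal of the 10 genes in each array, with cKO arrays (red) left of control arrays (grey), points numbered by array, and the mean with its SD as a horizontal line and bar. The vertical axis spans 2.5 log2 units for Dcdc2a and 0.9 for each other gene. The 2 groups are wide apart in Dcdc2a, apart by 0.23 in Stmn4 and by under 0.1 in Dcx and Gap43, and overlap in the other 6 genes.

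Dcdc2a had by far the largest difference of the 10 genes. It is the mouse counterpart of the human gene DCDC2, whose product carries doublecortin domains, binds microtubules and is found in cilia. Its signal was 9.63, 9.03, 9.57 and 9.61 in the cKO arrays, against 11.10, 11.12, 11.33 and 11.03 in the control arrays. The highest cKO array was 1.40 below the lowest control array. The means were 9.46 ± 0.28 in cKO and 11.14 ± 0.13 in control (SD, n = 4 each), a difference of -1.68 (SE 0.13), which puts the mRNA in cKO at 31.1% of its control level. Counted from the most negative difference, Dcdc2a was number 45 of the 19928 genes and number 2 of the 18722 genes that encode no chemoreceptor. Array cKO 2 was the lowest of the 8 and lay 0.53 below the next cKO array. Without it the difference was -1.54. Mutant and control mRNA came from whole mucosa, where fewer cells of a type and less RNA per cell cannot be told apart.

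Because Dcdc2a had the largest difference and Lhx2 encodes a DNA-binding protein, the 250 bases before the annotated RefSeq start of Dcdc2a are shown here, from mouse build GRCm38.p6, chr13:25055754-25056003, plus strand, 5′ to 3′.
Dcdc2a: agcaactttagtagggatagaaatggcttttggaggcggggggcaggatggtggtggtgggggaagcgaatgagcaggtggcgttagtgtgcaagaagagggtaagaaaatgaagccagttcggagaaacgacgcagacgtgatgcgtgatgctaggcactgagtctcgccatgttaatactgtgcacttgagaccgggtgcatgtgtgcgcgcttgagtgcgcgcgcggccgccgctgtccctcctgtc
A search of both strands for TAATTA, a core that many homeodomain proteins bind, and for CCCNNGGG, the core of the Olf1/Ebf sites found near many OSN genes, had no match in these letters. TAATTA occurs in 4.84% and CCCNNGGG in 11.8% of 32851 annotated mouse promoter windows of this length. The absence of both cores says only that these letters are not in this window.

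The 5 genes whose pattern over the 8 arrays lay closest to that of Dcdc2a were all odorant receptor (OR) genes: Olfr1047, Olfr1451, Olfr1132, Olfr478 and Olfr1044. Closeness was the root mean square distance between the log2 signals of 2 genes after each was centred on its own mean, and it was computed against 18700 genes with a curated RefSeq symbol. The distance was 0.10 for Olfr1047 and 0.14 for Olfr1044, the closest and the least close of the 5. Their differences lay between -1.73 for Olfr478 and -1.58 for Olfr1132, beside -1.68 for Dcdc2a. Array cKO 2 was the lowest array in all of them, at 5.15 for Olfr1047, 6.97 for Olfr1451, 6.42 for Olfr1132, 6.63 for Olfr478 and 6.82 for Olfr1044. A gene this close must have a difference near that of Dcdc2a, the contrast on which Dcdc2a was chosen. Counted from the most negative difference, Dcdc2a was number 45 of all genes but number 2 of those that encode no chemoreceptor. OR neighbours were therefore nearly given in advance, and the match is a description that tests nothing.

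**Figure D2:**
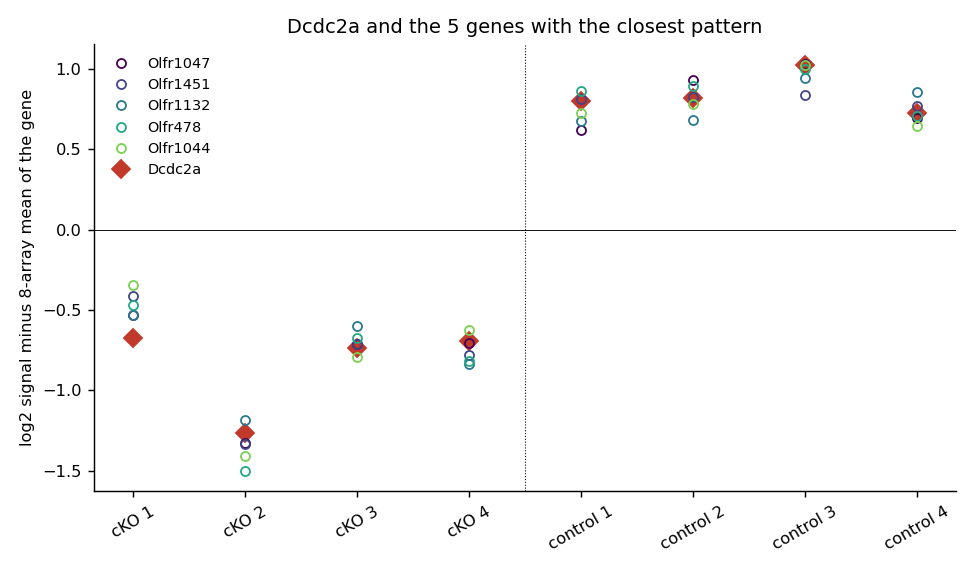
Log2 signal minus the mean of the gene over 8 arrays, for Dcdc2a (red diamonds) and the 5 OR genes with the closest pattern (open circles), with the 4 cKO arrays left of the 4 control arrays. All 6 genes are lowest in cKO 2 and above their own mean in every control array. The measure of closeness includes the fall in cKO for which Dcdc2a was chosen.

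Dcx, the X-linked gene of doublecortin, which newborn neurons use during migration and neurite growth, had a small difference. Its signal was 12.24, 12.13, 12.25 and 12.29 in the cKO arrays, against 12.40, 12.37, 12.53 and 12.51 in the control arrays. The groups did not overlap, though only 0.08 separated the highest cKO array from the lowest control array. The difference was -0.22 (SE 0.06), or 85.6% of the control level, and Dcx did not pass the threshold. Without cKO 2, again the lowest array, it was -0.19. Within arrays that carry the letter A in their titles (3 cKO and 2 controls) the difference was -0.26, and within those with the letter B (1 cKO and 2 controls) it was also -0.26. The labels do not say what the letter stands for. Dcx was called with the letter as a fixed block in the fit and not with the letter as a random block.

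Dcx was the only one of the 6 genes with promoter entries (Dcdc2a, Dcx, Dclk1, Dclk2, Stmn3 and Tubb3) in whose windows a searched core was found, so its 250 bases before the more upstream of its 2 annotated starts are given, from RefSeq in GRCm38.p6, chrX:143933220-143933469, minus strand, 5′ to 3′, with the TAATTA match in capitals.
Dcx: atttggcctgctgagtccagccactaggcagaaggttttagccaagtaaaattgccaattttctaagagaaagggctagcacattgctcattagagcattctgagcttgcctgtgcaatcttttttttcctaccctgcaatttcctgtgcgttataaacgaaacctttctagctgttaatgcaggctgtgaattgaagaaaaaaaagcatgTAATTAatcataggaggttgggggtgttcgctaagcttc
The match begins 39 bases before the start. The same letters fall in the window of the other annotated start of Dcx, where they begin 134 bases before it, so this is 1 match and not 2. The windows of Dclk1, Dclk2, Stmn3 and Tubb3 held neither core. No binding was measured in these samples, and the match is a description of the sequence.

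Dclk1 and Dclk2 encode doublecortin-like kinases, which join doublecortin domains to a serine/threonine kinase domain. Dclk1 read 11.71, 11.77, 11.75 and 11.77 in the cKO arrays, against 11.73, 11.73, 11.78 and 11.85 in the control arrays. The groups overlapped, and the difference was -0.02 (SE 0.04, 95% interval -0.12 to 0.08). Dclk2 read 9.44, 9.49, 9.46 and 9.47 in the cKO arrays, against 9.63, 9.40, 9.82 and 9.63 in the control arrays. Here the cKO arrays lay within 0.05 of each other, while the controls spread over 0.42, and control 2 was the lowest of the 8 arrays. The difference of Dclk2 was -0.15 (SE 0.08, 95% interval -0.33 to 0.03). It was -0.23 without control 2 and -0.09 without control 3, and -0.27 within the letter A arrays and -0.02 within the letter B arrays.

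Stmn4 was the only stathmin whose groups did not overlap. It encodes a neuronal stathmin that is anchored to membranes. Its signal was 9.58, 9.62, 9.58 and 9.64 in the cKO arrays, against 9.92, 9.93, 9.87 and 9.92 in the control arrays. A gap of 0.23 separated the groups, and the spread within each was small, at 9.61 ± 0.03 in cKO and 9.91 ± 0.03 in control (SD, n = 4 each). The difference was -0.30 (SE 0.04), or 81.0% of the control level. It was -0.30 within the letter A arrays, -0.30 within the letter B arrays and -0.31 without cKO 2, which was not the lowest cKO array for this gene. Leaving out 1 array at a time gave differences of -0.32 to -0.29, but Stmn4 no longer passed the adjusted threshold in 6 of the 8 cases (without cKO 3, cKO 4 or any of the 4 controls).

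The other stathmins had differences close to 0. Stmn1, the cytoplasmic stathmin of dividing and immature cells, read 13.63, 13.69, 13.65 and 13.65 in the cKO arrays, against 13.64, 13.58, 13.73 and 13.62 in the control arrays. The difference of Stmn1 was 0.01 (SE 0.05, 95% interval -0.09 to 0.12), and a second cluster of the gene differed by 0.02. Stmn2, a growth-associated stathmin of axons and growth cones, read 13.59, 13.38, 13.56 and 13.56 in the cKO arrays, against 13.52, 13.52, 13.48 and 13.59 in the control arrays. All 8 values overlapped apart from cKO 2, which was the lowest, and the difference was -0.01 (SE 0.06, 95% interval -0.14 to 0.12). Stmn3, a further neuronal stathmin, read 12.99, 12.76, 12.99 and 12.94 in the cKO arrays, against 12.94, 13.06, 12.89 and 13.05 in the control arrays. Array cKO 2 was again the lowest, and the difference of Stmn3 was -0.07 (SE 0.07, 95% interval -0.21 to 0.08). It was -0.01 without cKO 2.

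Gap43 read lower in every cKO array than in every control array, with 1 cKO array far below the others. Its signal was 11.96, 11.41, 11.86 and 11.97 in the cKO arrays, against 12.13, 12.04, 12.11 and 12.09 in the control arrays. The gap between the groups was 0.07, and cKO 2 was 0.45 below the next cKO array. The difference was -0.29 (SE 0.12), but -0.16 without cKO 2, -0.17 within the letter A arrays and -0.67 within the letter B arrays, where cKO 2 is the only cKO array. Gap43 did not pass the threshold. For this mutant the study reports no change in the count of Gap43-stained immature OSNs, in sections from older mice than those here. It also reports that a large set of immature OSN mRNAs was on average unaffected. Tubb3 read 11.78, 11.63, 11.69 and 11.62 in the cKO arrays, against 11.66, 11.73, 11.76 and 11.63 in the control arrays. These values were interleaved, and the difference of Tubb3 was -0.02 (SE 0.05, 95% interval -0.14 to 0.10).

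Array cKO 2 was the lowest of the 8 arrays in 5 of the 10 genes (Dcdc2a, Dcx, Stmn2, Stmn3 and Gap43) and the highest cKO array in 3 (Dclk1, Dclk2 and Stmn1). Its part in the differences was not tested beyond leaving it out. Over all arrays left out in turn, 6 of the 10 differences (Dcdc2a, Dcx, Dclk2, Stmn3, Stmn4 and Gap43) kept their sign, and those of Dclk1, Stmn1, Stmn2 and Tubb3 passed through 0.

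A contrast on which these genes were not chosen is that between the 2 control genotypes, 123Cre:Lhx2fl/+ minus Lhx2fl/+, with 2 arrays each. It asks whether the genes differ between animals with Cre and 1 recombinable allele and animals without Cre. Of the 10 genes, 0 passed an adjusted p under 0.01 in a limma fit of the 3 genotypes, as did 0 of all 19928 genes (0%), of which 1551 had an unadjusted p under 0.05, and none of the 10 was among these. Dcdc2a averaged 11.18 in 123Cre:Lhx2fl/+ and 11.11 in Lhx2fl/+, a difference of 0.07 (SE 0.20, limma adjusted p = 0.957, 95% interval -0.39 to 0.53). Stmn4 averaged 9.90 in 123Cre:Lhx2fl/+ and 9.92 in Lhx2fl/+, a difference of -0.03 (SE 0.06, limma adjusted p = 0.930, 95% interval -0.16 to 0.10). The most different of the 10 was Dclk2, with averages of 9.72 in 123Cre:Lhx2fl/+ and 9.52 in Lhx2fl/+, a difference of 0.21 (SE 0.09, limma adjusted p = 0.649, 95% interval -0.01 to 0.42). Dcx followed with 0.13 (SE 0.07, limma adjusted p = 0.667), from averages of 12.52 in 123Cre:Lhx2fl/+ and 12.38 in Lhx2fl/+. With 2 arrays a genotype the intervals are wide. The spread behind them is pooled over all 8 arrays, so the cKO arrays also set their width. For Gap43 the SD was 0.26 in cKO and 0.04 in control. Among the controls the genotype and the title letter are the same split and cannot be told apart.

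**Figure D3:**
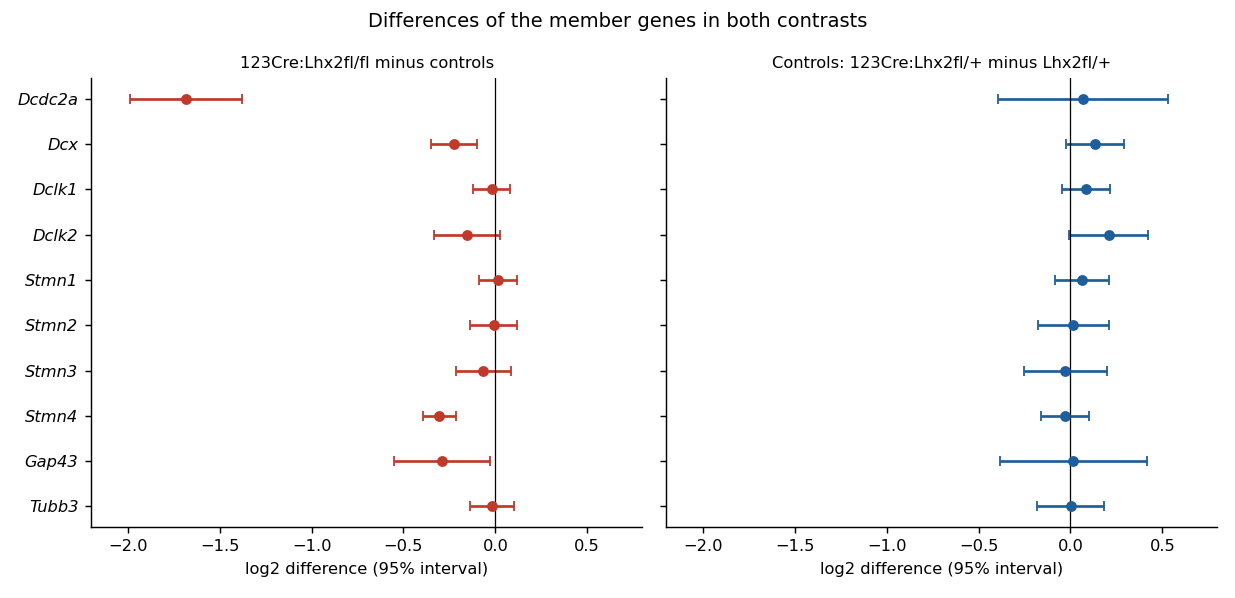
Log2 differences of the 10 genes with 95% intervals, for 4 cKO minus 4 control arrays (left, red; genes chosen in part on this contrast) and, among controls, for 2 123Cre:Lhx2fl/+ minus 2 Lhx2fl/+ arrays (right, blue). On the left the intervals of Dcdc2a, Dcx, Stmn4 and Gap43 lie below 0 and the other 6 include it, and on the right all 10 include 0.

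The markers of OSN stages give the setting of these values. The mean signal of 15 mature OSN markers was 10.89 to 11.41 in the cKO arrays and 11.84 to 11.94 in the control arrays. All 15 had differences below 0, with a median of -0.59, or -0.46 without cKO 2. By limma 5 of them (Adcy3, Pde1c, Cnga4, Omp and Slc17a6) passed the threshold as lower, against 12 of the 15 without cKO 2. Over a far larger set of mature OSN mRNAs the study reports a smaller average decrease in this mutant. The 15 markers are therefore no measure of the number of mature OSNs. The mean of 15 immature OSN markers other than the 10 genes was 11.44 to 11.56 in the cKO arrays and 11.45 to 11.55 in the control arrays, with a median difference of 0.02 and 0 of 15 past the threshold (1 lower and 1 higher at an unadjusted p under 0.05). Most of these markers (Ncam1, Marcksl1, Ablim1, Elavl4, Dbn1, Tubb2b, Dpysl3, Dpysl5 and Crmp1) are themselves cytoskeletal or growth cone genes. They also stand in the related lists below, so those lists and this one are not separate observations. Of 6 markers of OSN progenitors 0 passed, with 1 lower and 3 higher at an unadjusted p under 0.05. Of 6 genes of dividing cells 0 passed, with 3 higher at that p. The median difference was 0.12 in both lists. All 6 genes of dividing cells were above 0, and in 2 every cKO array lay above every control array, as in 3.18% of all genes. Over all genes 9.87% were lower and 5.13% higher at an unadjusted p under 0.05. Markers of 6 other sources, namely sustentacular cells, ensheathing glia, vomeronasal and trigeminal neurons, macrophages, blood, and cartilage, bone and muscle, had no gene past the threshold and none at an unadjusted p under 0.05. The blood list held only 2 measured genes, Alas2 and Slc4a1, with a median difference of -0.32 and overlapping groups, too few to compare blood content. The medians of the other lists ran from -0.01 in sustentacular cells to 0.11 in macrophages. Among 8 markers of respiratory ciliated cells, whose mean was 10.03 to 10.27 in the cKO arrays and 10.24 to 10.39 in the control arrays, 0 passed and 3 were lower at an unadjusted p under 0.05. One of these was Dnah11, a ciliary dynein, at -0.62 (SE 0.12, limma adjusted p = 0.0166). Their defining gene, Foxj1, differed by -0.16 (SE 0.07, limma adjusted p = 0.323). The part of any of these cell types in the difference of Dcdc2a was not tested.

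Set against the mean of the immature OSN markers in the same array, the differences were -1.69 for Dcdc2a, -0.31 for Stmn4, -0.30 for Gap43 and -0.23 for Dcx, and the same 4 genes had every cKO array below every control array. Set against the mean of the mature OSN markers, only Dcdc2a of the 10 genes stayed lower, at -1.04, with every cKO array below every control array. The other 9 genes were then higher in every cKO array, by 0.35 for Stmn4 up to 0.66 for Stmn1. The mature marker mean itself differed by -0.65 with no overlap between the groups. Setting genes against it raises every difference by the same amount, so these 9 values follow from the fall of the markers. A fall as large as that of Dcdc2a was not confined to it. One of the mature markers, Cnga4, differed by -1.60 as deposited, beside -1.68 for Dcdc2a, and its lowest array was also cKO 2. Without cKO 2, an alternative chosen after seeing the data, the values relative to the immature markers were -1.57 for Dcdc2a, -0.34 for Stmn4, -0.19 for Gap43 and -0.22 for Dcx, and relative to the mature markers -1.01 for Dcdc2a and, for the other 9 genes, 0.22 for Stmn4 up to 0.57 for Stmn2. The arrangement of the arrays relative to the mature markers was unchanged in all 10 genes, while relative to the immature markers Dclk1, at -0.05, was also lower in each of the 3 remaining cKO arrays.

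**Figure D4:**
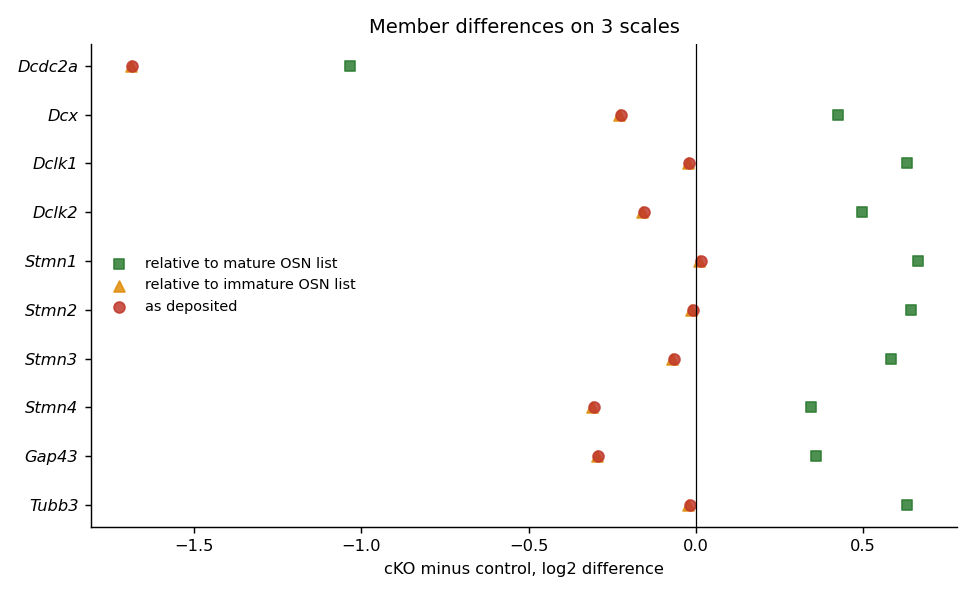
Difference between cKO and control (log2) of each gene as deposited (red circles), relative to the mean of 15 immature OSN markers (orange triangles) and relative to the mean of 15 mature OSN markers (green squares). On the mature scale Dcdc2a is at -1.04 and the other 9 genes lie between 0.35 and 0.66.

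Related genes were taken as 6 lists with 95 measured genes in all. By limma 0 of the 95 were lower and 0 higher at an adjusted p under 0.01, against 2.07% and 0.0602% of all genes. None of the 95 encodes a chemoreceptor, and of the 18722 genes that encode none, only 103 were lower and 12 higher. At an unadjusted p under 0.05, 15 of the 95 were lower and 5 higher, against 9.87% and 5.13% of all genes. The lower genes were thus a larger share of the 95 than of all genes, and the higher genes a similar share. The all-gene shares include the chemoreceptors, and shares without them were not computed at this p. Whether the 95 differ from other genes was not tested. The plain t test with Benjamini-Hochberg adjustment called 0 of the 95, and 0 lower and 1 higher of all genes, so it adds nothing here. Their median difference was 0.00. At the looser adjusted p under 0.05, 5 were lower (Kif3c, Kif1a, Dclk3, Tuba4a and Kif5a) and 0 higher.

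Among 5 other genes of the doublecortin family, the median was -0.09. Dcdc5 had the largest difference of the 95 genes, -0.57 (SE 0.15, limma adjusted p = 0.0678), with 9.31, 8.99, 9.06 and 9.32 in the cKO arrays and 9.90, 9.38, 10.09 and 9.61 in the control arrays. The groups of Dcdc5 did not overlap, but controls 1 and 3 were well above controls 2 and 4. Dclk3, a kinase related to Dclk1 and Dclk2, read 9.07, 8.79, 9.06 and 8.83 in the cKO arrays and 9.28, 9.32, 9.25 and 9.24 in the control arrays, a difference of -0.34 (SE 0.07, limma adjusted p = 0.0322). These groups did not overlap either. Rp1 and Rp1l1, whose products bind the ciliary axoneme of photoreceptors, differed by 0.03 and -0.09, and Dcdc2c by 0.08. Dcdc1 and Dcdc2b were not analysed here.

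Of 16 other tubulin genes, 11 were above 0, with a median of 0.06. Tuba4a, an alpha tubulin, had the most negative difference, -0.32 (SE 0.07, limma adjusted p = 0.0290), and was the only tubulin with every cKO array below every control array. Tubb4a, at 0.46, had the largest difference of the opposite sign but a wide spread (SE 0.23, limma adjusted p = 0.407). Tubb2a differed by 0.14 (SE 0.06, limma adjusted p = 0.328).

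Among 30 genes of microtubule-associated proteins the median was 0.01, with 14 below 0 and 16 above. Map6, which makes microtubules resistant to cold, was at -0.21 (SE 0.05, limma adjusted p = 0.0541), and Nde1, a partner of cytoplasmic dynein, at 0.17 (SE 0.05, limma adjusted p = 0.130). Clasp2, which tracks growing microtubule ends, was at -0.20 (SE 0.07, limma adjusted p = 0.160). None of the 3 passed the threshold.

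The 5 genes of the CRMP family, cytosolic proteins that bind tubulin dimers and act in axon guidance, lay between -0.06 for Dpysl4 and 0.02 for Dpysl5, all with overlapping groups. Of 22 growth cone and axon outgrowth genes, 7 were below 0 and 15 above, with a median of 0.02. Ncam1, the neural cell adhesion molecule, was the most negative of these at -0.22 (SE 0.06, limma adjusted p = 0.0587) and was also the only one with every cKO array below every control array.

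Of the 17 axonal transport motors 15 were below 0, with a median of -0.03. In 5 of them (Kif3c, Kif5a, Kif1a, Kif21b and Kif3b) every cKO array lay below every control array. The share was 8.43% over all genes and 4.51% over the genes that encode no chemoreceptor. Kif3c, a subunit of kinesin-2, was at -0.39 (SE 0.07, limma adjusted p = 0.0124), Kif5a, a conventional kinesin heavy chain of neurons, at -0.25 (SE 0.06, limma adjusted p = 0.0437), and Kif1a, a carrier of synaptic vesicle precursors, at -0.23 (SE 0.05, limma adjusted p = 0.0214). Without cKO 2, Kif3c passed the adjusted p of 0.01. Whether the motors differ from the tubulins as lists was not tested.

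**Figure D5:**
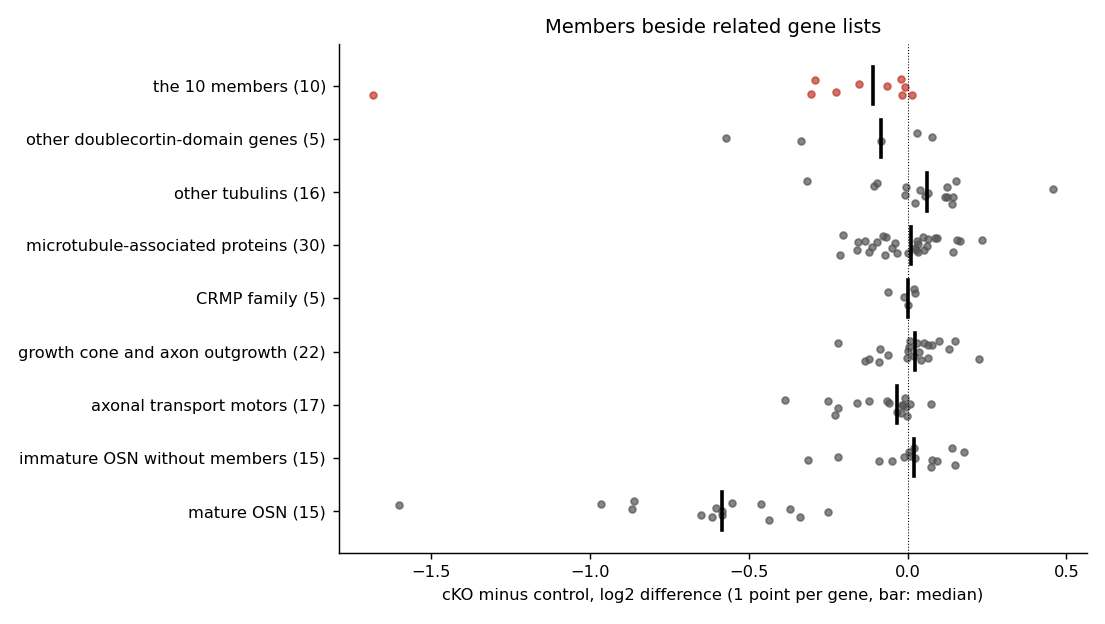
Difference between cKO and control (log2) of every gene in the 10 genes described here (red), in 6 related lists and in the immature and mature OSN marker lists (grey), 1 point per gene with a bar at the median and the number of genes in parentheses. Dcdc2a lies at -1.68 and the mature OSN markers have a median of -0.59, and among the related lists Dcdc5 lies farthest to the left, at -0.57. Most immature OSN markers are also shown in a related list.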

How the data were processed

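Total RNA of olfactory mucosa was hybridised to 8 Affymetrix mouse gene arrays. The authors summarised the probes at the level of transcript clusters, and the deposited values are log2 signals of 28312 clusters. How the arrays were normalized to each other is not stated in the sources read. No scanner files were used, so background could not be assessed, and the number of arrays limits the precision. Clusters were named from the platform annotation: 21759 had 1 symbol, 1605 had several and 4948 had none, and only those with 1 symbol were used, 21668 of which matched RefSeq (GRCm38.p6) by gene ID. Of several clusters of a gene the one with the highest mean was kept, which left 19928 genes.

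Differences were fitted with limma (version 3.58.1, R 4.3.3; lmFit and eBayes) on the log2 values as deposited, with Benjamini-Hochberg adjustment over all 19928 genes and a threshold of 0.01. A second fit of 3 genotypes gave the contrast between the control genotypes. The methods' t-test was run as an alternative, without the study's correction for the number of mature OSNs. The fits were tested on simulated data. Named are the 10 genes, Lhx2, Omp, up to 4 genes of each list by smallest p and the 5 closest in pattern to Dcdc2a; Kif3b, Rp1 and Slc17a6 fell outside this rule and were named after their values were seen. The members, lists and tests were chosen with earlier results of these data known. Arrays are numbered in the order of deposit within a group. The study counts the 4 samples of a group as mice. Promoter windows were read from RefSeq tables, which held 6 of the 10 genes. The listed genes Dcdc1, Dcdc2b, Tuba1b, Tuba1c, Tubb4b and Klc2 were not analysed here.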

Additional observations from a re-analysis of the deposited data

Results flagged for a closer look

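In the 10 genes, 20 sets of 4 arrays (cKO and control for each gene) were examined for an array that stands apart by Dixon's ratio, the gap from the extreme array to the next one divided by the whole range and with its 95% critical value as the limit. Chance passes this limit in about 1 of 20 such sets. It was passed in 2 sets, both by cKO 2. In Dcdc2a, cKO 2 read 9.03 and the ratio was 0.898, while the other 3 cKO arrays lay between 9.57 and 9.63, and the difference without it was -1.54. In Stmn2, cKO 2 read 13.38 and the ratio was 0.842, and the difference without it was 0.04. The cause was not tested.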

How the results depend on the processing

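Against 412 lower and 12 higher genes of all genes, 2 lower members and 0 related genes in the limma fit, the methods' t-test with adjustment called 0 lower and 1 higher gene and 0 members (1941 lower and 1014 higher genes had an unadjusted p under 0.05). With no adjustment and a p under 0.01 it called 1123 lower and 236 higher genes, with 10 lower and 2 higher related genes. An adjusted p under 0.05 called 1031 lower and 73 higher genes and 5 lower related genes. Trended robust moderation called 2 lower related genes (Kif1a and Kif3c), the title letter as a fixed block 2 (Kif3c and Kif5a) and array weights 1 (Kif3c). Against only the 2 Lhx2fl/+ controls limma called 0 lower and 0 higher genes and 0 members (1721 and 598 genes at an unadjusted p under 0.05, among them 3 members), and likewise 0, 0 and 0 against only the 2 123Cre:Lhx2fl/+ controls (1844 and 1614 genes, among them 4 members). These fits hold fewer arrays. With each array left out in turn, limma called 30 (without control 1) to 657 (without cKO 2) lower genes, 0 to 19 higher genes, 1 to 2 members and 0 to 1 lower related genes. Without cKO 3, cKO 4 and controls 2, 3 and 4 there were 54, 99, 79, 84 and 57 lower genes. The members' differences are given with arrays left out beside each gene where these moved them, and several of the alternatives leave them as they are by construction. Quantile normalization and centring on genes without chemoreceptors kept both calls among the members. The contrast of the control genotypes called 0 genes under each setting tried. No paired analysis was possible because the labels carry no replicate numbers, and the numbers used here follow the order of deposit.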
